A study of Homo sapiens with 10 samples.

Results

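The AP-1 transcription factor genes of the FOS and JUN family were followed in neurospheres of the human line ReNcell VM (neural progenitors made immortal, able to form neurons and glia), grown with phthalate esters through 6 days of differentiation. The members are the rows of the count table with these gene symbols: FOS, FOSB, FOSL1, FOSL2, JUN, JUNB and JUND, 7 of the 46427 genes in the count table. All 7 passed the filter on low counts and were among the 19465 genes tested. The 10 libraries formed 5 groups of 2: vehicle (DMSO at 0.1%) and 4 treatments at a labelled 100 µM, namely DEP (diethyl phthalate), DProP (commonly di-n-propyl phthalate), DPP and a mixture, Mix. The abbreviation DPP fits several phthalates, so its structure is left unnamed here, and the labels do not state what Mix contains. All groups, the vehicle included, share the cell line, the 6 days of differentiation and the pooling of 6 neurospheres per library. Whether the paired libraries of a group derive from independent cultures is not in the labels, so the error here is the spread between libraries of 1 line, which may be technical.

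AP-1 is a dimer of basic leucine zipper proteins: a FOS protein needs a JUN partner, whereas JUN proteins also pair with one another and with ATF and MAF proteins. FOS, FOSB, JUN and JUNB are immediate early genes, transcribed within minutes of growth factor, stress or calcium signals, and their messages are short-lived. FOSL1 and FOSL2 respond more slowly, JUND is present in most cells at rest, and in neural cells the family is best known as a readout of neuronal activity and injury.

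The control sequences of FOS, FOSB, JUNB and JUND are shown because the first 3 genes rose together in every treatment whereas JUND did not. Each window runs from 250 bases before to 50 bases after the gene's start, 5′ to 3′ on the gene's strand, from RefSeq on GRCh38.p14. The windows are chr14:75278578-75278877 (plus strand) for FOS, chr19:45467746-45468045 (plus) for FOSB, chr19:12791236-12791535 (plus) for JUNB and chr19:18281573-18281872 (minus) for JUND. Capitals mark the cyclic AMP response element TGACGTCA (CRE), its short form TGACG or CGTCA, and the TATA motif TATAAA.
FOS: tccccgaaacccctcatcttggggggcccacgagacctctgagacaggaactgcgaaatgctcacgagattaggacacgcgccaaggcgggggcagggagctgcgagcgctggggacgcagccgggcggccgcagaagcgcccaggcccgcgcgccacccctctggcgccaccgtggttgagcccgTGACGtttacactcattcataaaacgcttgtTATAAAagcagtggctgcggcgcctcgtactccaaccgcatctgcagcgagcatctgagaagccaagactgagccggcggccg
FOSB: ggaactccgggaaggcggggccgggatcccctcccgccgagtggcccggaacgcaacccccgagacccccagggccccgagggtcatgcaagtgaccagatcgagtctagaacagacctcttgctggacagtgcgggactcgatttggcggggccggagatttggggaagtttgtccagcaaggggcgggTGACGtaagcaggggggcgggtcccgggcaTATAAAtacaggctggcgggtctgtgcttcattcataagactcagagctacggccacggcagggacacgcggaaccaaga
JUNB: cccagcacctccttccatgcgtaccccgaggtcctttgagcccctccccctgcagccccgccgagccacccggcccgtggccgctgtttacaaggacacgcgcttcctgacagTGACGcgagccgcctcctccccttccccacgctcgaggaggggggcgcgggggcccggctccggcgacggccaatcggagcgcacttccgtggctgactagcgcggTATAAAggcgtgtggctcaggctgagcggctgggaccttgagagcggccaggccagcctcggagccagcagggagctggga
JUND: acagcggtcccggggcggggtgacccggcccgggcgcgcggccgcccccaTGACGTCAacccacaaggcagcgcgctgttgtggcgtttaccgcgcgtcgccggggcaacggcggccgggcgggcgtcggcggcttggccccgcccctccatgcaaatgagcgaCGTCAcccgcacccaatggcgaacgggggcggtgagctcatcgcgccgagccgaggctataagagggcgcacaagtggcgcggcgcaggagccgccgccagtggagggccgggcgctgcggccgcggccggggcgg

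The promoters of FOS, FOSB and JUNB each held a TATAAA on the gene's strand, at -33, -30 and -31 from the start, against 4.5% of the 19279 promoters of tested genes in the table. Each also held a single TGACG, the short CRE motif, at -64, -60 and -137; 30.4% of the promoters held this motif on either strand. JUN, which rose in DEP and DPP, held TGACG at -123 and no TATAAA, and FOSL2 held TGACG at -66, CGTCA at -201 and no TATAAA. JUND held the full CRE TGACGTCA at -200, a sequence in 2.65% of promoters on either strand, and no TATAAA. Only the exact letters TATAAA were searched, and the JUND window holds a near match, TATAAG. The full CRE contains a TGACG and a CGTCA, and JUND held 1 further CGTCA, at -86. FOSL2 held a TGACTCA, the AP-1 site itself, 5 bases after its start, and JUN held TGACATCA, a variant to which JUN and ATF proteins bind, at -67. TGACTCA or TGAGTCA was in 3.72% of promoters and TGACATCA or TGATGTCA in 1.73%, on either strand. A CCAAT motif (CCAAT or ATTGG, in 34.3% of promoters) was found in JUN, JUNB and JUND. The CArG box, searched by name for serum response factor, was in 1.18% of promoters and in none of these windows. Sequence outside the windows was not searched, so a CArG box farther upstream, of FOS or another member, would have been missed. The promoter windows ranged from 62% GC in JUN to 77% in JUND, and the median of all windows was 58.7%. A match describes the letters and not a bound site. Whether any motif takes part in the changes below was not tested, and the windows printed were picked by those changes. The promoter of FOSL1 was not analysed here.

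The messages of the family differ in AU-rich elements, short ATTTA runs in the 3′ untranslated region (UTR) that are known to speed the decay of immediate early messages. By GENCODE v29, the 3′ UTR of FOS held 5 ATTTA in 806 bases, or 6.2 per kb, which placed it at the 95.2 percentile of 14717 tested genes, and JUNB held 2 in 500 bases, or 4.0 per kb, at the 84.9 percentile. The other members held 1.39 to 2.33 per kb and lay between the 45.9 and 62.5 percentiles. Only FOS and FOSL2 among the 7 held the longer TTATTTATT, which 9.15% of tested genes hold, while 71.2% hold at least 1 ATTTA. The 30-base stretches below show where ATTTA runs lie closest together in FOS (bases 627 to 656 of its 3′ UTR) and FOSL2 (bases 3907 to 3936), with ATTTA in capitals.
FOS: gttttattgtgtttttaATTTATTTAttaa
FOSL2: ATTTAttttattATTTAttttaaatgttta

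Libraries held 57222381 to 72973100 counts, and CPM values below are counts divided by the library size after TMM scaling. Replicate spread over all genes, as edgeR's common coefficient of variation, was 9.4%. The vehicle pair differed from the 8 treated libraries in general measures: 21500 and 21603 genes had a count, against 22905 to 23646 after treatment, and the share of counts from 37 mitochondrial genes was 0.116% and 0.149% against 0.296% to 0.354%. Log2 fold changes against vehicle fell with the GC content of a transcript (Spearman's rho -0.35 to -0.28 over 14822 genes, which are not independent replicates), and rho ran from -0.14 to 0.07 between treatments. Marker sums of progenitors, neurons and astrocytes were lower in all treatments: the 10 neuron markers summed to 1985 to 2057 CPM in vehicle, 1315 to 1444 in DEP, 1169 to 1223 in DProP, 1024 to 1133 in DPP and 1610 to 1636 in Mix. The 10 progenitor markers summed to 7605 to 7666 CPM in vehicle and 4502 to 4967 after treatment, and the 8 astrocyte markers to 9195 to 9422 and 4848 to 5585. All of these markers had counts in every group, so the defining genes of the labelled neural cells were present. The 7 microglia and leukocyte markers summed to at most 7.87 CPM in any library, with PTPRC, AIF1 and TYROBP at 0 throughout. The 6 endothelial markers, with PECAM1 at 0, summed to 47.5 to 51.5 CPM in vehicle and 7.25 to 27.4 after treatment. CLDN5 alone held 6.18 to 46.4 CPM of that sum, and of the 5 tested 1 fell in DEP, 1 in DProP, 2 in DPP and 0 in Mix. The 10 mesenchymal and smooth muscle markers, with DCN at 0, summed to 179 to 181 CPM in vehicle and 76.7 to 103 after treatment. The 8 oligodendrocyte markers summed to 929 to 930.0 CPM in vehicle and 431 to 618 after treatment, with SOX10 at 0 in vehicle and DProP and MOG at 0 in vehicle. In such bulk samples, fewer cells of a type and less RNA per cell cannot be told apart, and whether the shift in cell types, in GC trend or in detected genes takes part in the results below was not tested.

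In vehicle libraries JUND and JUN were by far the most abundant members. Scaled to transcript length, JUND stood at 71.8 ± 6.21 CPM per kb (mean ± SD, n = 2 libraries per group, here and below), at the 96.2 percentile of 16752 genes with a length, and JUN at 49.1 ± 1.09, at the 93.1 percentile. FOS followed at 18.5 ± 0.99 CPM per kb (76.2 percentile), then JUNB at 6.33 ± 0.64 (49.4) and FOSL2 at 5.93 ± 0.88 (48). FOSL1 at 1.12 ± 0.20 (24.6 percentile) and FOSB at 0.41 ± 0.13 (16.8) were the scarcest. Exome capture can enrich genes unequally, so the order between genes is a description.

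**Figure D1:**
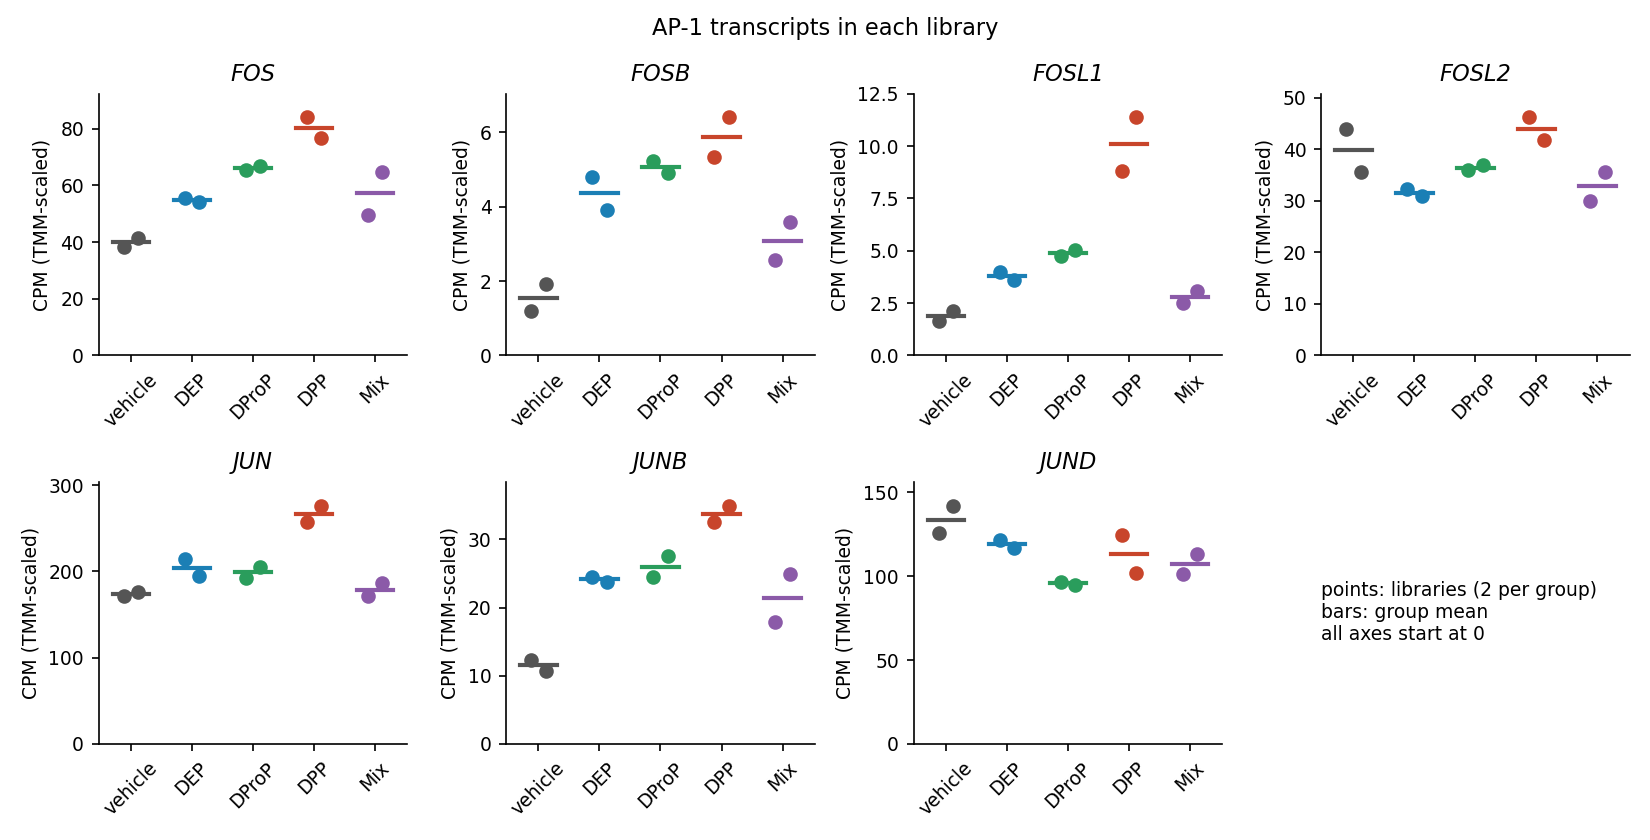
CPM (TMM-scaled, linear axes from 0) of the 7 members in each of the 10 libraries, by group; points are libraries and bars are group means. JUNB lies at 10.7 and 12.3 in vehicle and at 17.9 or above in all treated libraries, and FOSL1 reaches 8.83 and 11.4 only in DPP.

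Among the FOS genes, which encode the partners that need a JUN protein, FOS itself rose in all 4 treatments. FOS stood at 38.4 and 41.5 CPM in the vehicle libraries, 55.6 and 54.1 in DEP, 65.3 and 66.7 in DProP, 84.1 and 76.6 in DPP, and 49.7 and 64.6 in Mix. Every treated library lay above both vehicle libraries, and DPP lay above all other groups. The share of all genes set apart from vehicle in this way is not given, here or for the members below. The log2 fold change against vehicle was 0.46 ± 0.10 (SE) in DEP, 0.73 ± 0.10 in DProP, 1.01 ± 0.10 in DPP and 0.52 ± 0.10 in Mix, with adjusted p values of 0.00887, 0.000415, 3.28e-05 and 0.0056 from edgeR's quasi-likelihood test, adjusted by Benjamini and Hochberg over all genes tested as everywhere below. The DEP call was lost without vehicle 1 (adjusted p = 0.0679) or without DEP 1 (0.0644).

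FOSB, whose short splice form (deltaFosB) accumulates in neurons after repeated stimulation, was scarce and showed one of the larger relative increases of the family. Its values were 1.21 and 1.91 CPM in vehicle, 4.80 and 3.92 in DEP, 5.23 and 4.92 in DProP, 5.33 and 6.41 in DPP, and 2.57 and 3.60 in Mix, which correspond to 77 to 106 raw counts in vehicle and 188 to 423 after treatment. No treated library overlapped the vehicle libraries. The log2 fold change was 1.49 ± 0.24 in DEP (adjusted p = 0.00124), 1.71 ± 0.24 in DProP (0.000303), 1.92 ± 0.24 in DPP (9.49e-05) and 0.99 ± 0.24 in Mix (0.0132). The Mix call was lost without vehicle 1 (log2 fold change 0.69, adjusted p = 0.0991) or without Mix 2 (0.73, 0.0966). Counts per gene cannot separate the splice forms.

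FOSL1, which encodes FRA1, a late FOS protein linked to migration and wound responses, showed the widest range. It stood at 1.63 and 2.11 CPM in vehicle, 3.96 and 3.62 in DEP, 4.72 and 5.01 in DProP, 8.83 and 11.4 in DPP, and 2.50 and 3.07 in Mix. All treated libraries lay above vehicle, and both DPP libraries lay well above all others. The rise was 2.04-fold in DEP (95% interval 1.53 to 2.70, adjusted p = 0.00268), 2.61-fold in DProP (1.97 to 3.47, adjusted p = 0.000261) and 5.42-fold in DPP (4.08 to 7.19, adjusted p = 4.51e-06). In Mix the fold of 1.49 (1.12 to 1.99) just missed the threshold (adjusted p = 0.0501), and passed it in 7 of 20 alternative analyses.

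FOSL2, which encodes FRA2, followed the other FOS genes over the 8 treated libraries. Pearson's r of log2 CPM, a description, was 0.993 with FOS, 0.878 with FOSL1 and 0.728 with FOSB. Against vehicle FOSL2 behaved unlike them. Its values were 44.0 and 35.6 CPM in vehicle, 32.2 and 30.9 in DEP, 36.0 and 36.9 in DProP, 46.2 and 41.7 in DPP, and 29.9 and 35.6 in Mix. The vehicle libraries lay far apart, and DEP was the only treatment with both libraries outside their range, below it; single libraries of DPP (above) and Mix (below) were outside too. FOSL2 was lower in DEP, with a log2 fold change of -0.33 ± 0.11 (adjusted p = 0.0416), a call that was lost in 10 of 20 alternatives, without vehicle 1 among them (-0.18, adjusted p = 0.306). It was -0.13 ± 0.11 in DProP (adjusted p = 0.39), 0.14 ± 0.11 in DPP (0.322) and -0.28 ± 0.11 in Mix (0.0843). The sign in DProP turned with library size scaling or without vehicle 1, and the sign in DPP turned without vehicle 2. The DPP value passed the threshold with library size scaling (0.30, adjusted p = 0.0448). The Mix value passed it without vehicle 2 (-0.42) or without Mix 2 (-0.41). The antisense gene FOSL2-AS1, which overlaps FOSL2, had no count in any library.

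Among the JUN genes, JUN, whose protein is the target of the JNK kinases, rose in DPP most clearly. JUN stood at 171 and 177 CPM in vehicle, 214 and 194 in DEP, 192 and 205 in DProP, 257 and 276 in DPP, and 171 and 186 in Mix. Both DPP libraries exceeded every other library, whereas the Mix libraries overlapped vehicle. The log2 fold change was 0.62 ± 0.07 in DPP (adjusted p = 5.42e-05) and 0.23 ± 0.07 in DEP (0.0315). It was 0.19 ± 0.07 in DProP (adjusted p = 0.053), which passed the threshold in 8 of 20 alternatives, and 0.04 ± 0.07 in Mix (0.736, 95% interval -0.11 to 0.19). The DEP call was lost without vehicle 1 (adjusted p = 0.134), vehicle 2 (0.073) or DEP 1 (0.239).

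JUNB, an immediate early JUN gene whose protein often restrains JUN, rose in every treatment. Its values were 12.3 and 10.7 CPM in vehicle, 24.5 and 23.8 in DEP, 24.5 and 27.5 in DProP, 32.5 and 34.9 in DPP, and 17.9 and 25.0 in Mix. All 8 treated libraries lay above both vehicle libraries. The log2 fold change was 1.07 ± 0.14 in DEP (adjusted p = 0.000466), 1.17 ± 0.14 in DProP (0.000145), 1.55 ± 0.14 in DPP (1.62e-05) and 0.89 ± 0.14 in Mix (0.0015). Each of these 4 calls held in all 20 alternatives run for it. HOOK2, a gene that overlaps 865 of the 1830 bases of the JUNB locus, held 13.9 to 17.6 CPM, and its log2 fold changes against vehicle lay between -0.30 and -0.23. The strand setting of the counting is unknown, so reads in that overlap may have been assigned to either gene.

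JUND, the JUN gene of resting cells, was the only member whose highest mean was in vehicle. It stood at 126 and 142 CPM in vehicle, 122 and 117 in DEP, 96.7 and 94.8 in DProP, 125 and 102 in DPP, and 102 and 113 in Mix. All treated libraries lay below vehicle, DPP 1 at 124.6 against vehicle 1 at 125.6 only barely. On the TMM scale JUND was lower in DProP (log2 fold change -0.48 ± 0.09, adjusted p = 0.00276) and Mix (-0.32 ± 0.09, 0.0352), and stood at -0.24 ± 0.09 in DPP (0.0664) and -0.17 ± 0.09 in DEP (0.221). The JUND transcript has 69.7% GC, at the 99.6 percentile of protein-coding genes. With an offset for GC content and length the sign turned in DEP (0.15), DPP (0.09) and Mix (0.03), and DProP moved to -0.10 (adjusted p = 0.268). The same offset kept the direction and the call of FOS, FOSB, FOSL1 and JUNB wherever they were called against vehicle, and JUNB is itself at the 95.6 percentile of GC content. The Mix call was also lost with library size scaling (-0.17) and without vehicle 2 (-0.22), among 5 alternatives that kept its sign, and the DPP value passed the threshold with DESeq2, without vehicle 1 or without DPP 1.

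**Figure D2:**
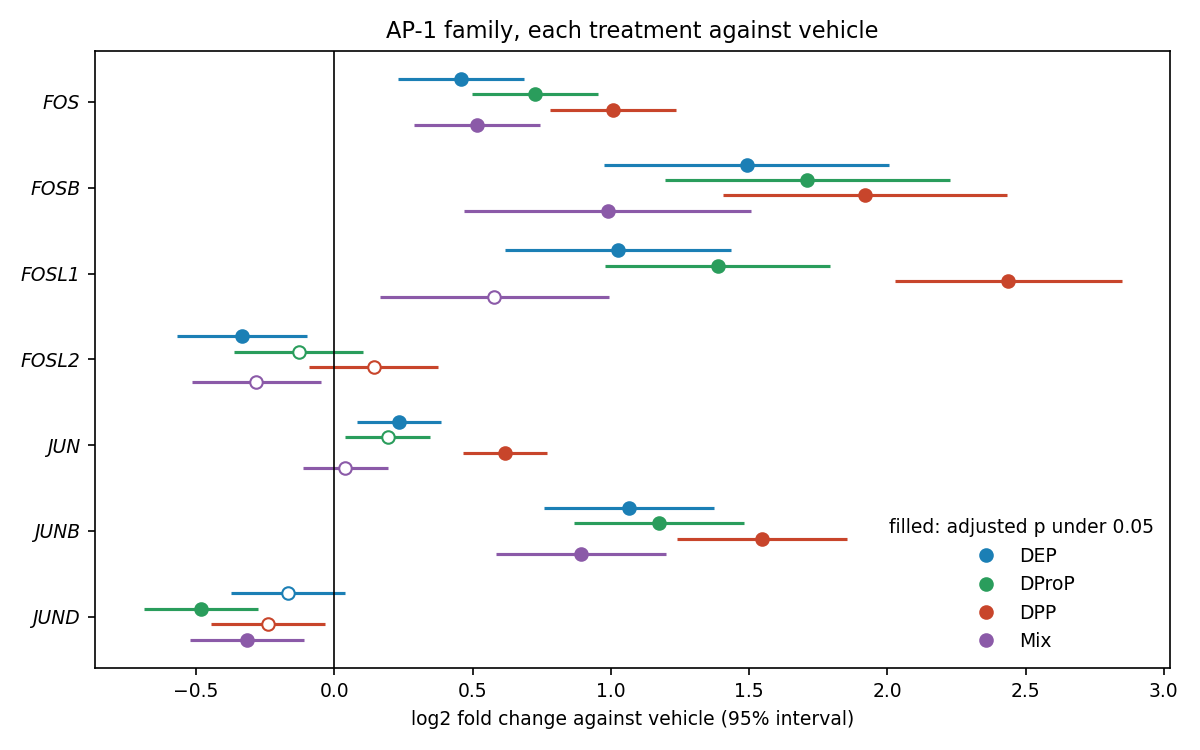
Log2 fold change of each member against vehicle (x axis) with its 95% interval, by treatment; filled points have an adjusted p under 0.05. FOSL1 in DPP lies farthest to the right at 2.44, while JUND lies left of 0 in all 4 treatments on this TMM scale, a sign that turned in DEP, DPP and Mix with the GC and length offset.

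Counted over the family, 6 of 7 members were called in DEP against vehicle, where 23.6% of all genes tested were called. It was 5 of 7 in DProP (background 32.2%), 5 of 7 in DPP (36.2%) and 4 of 7 in Mix (20.4%). In the same order the members that rose numbered 5, 4, 5 and 3, against 10.1%, 14.7%, 16.7% and 9.71% of all genes. The members that were lower numbered 1, 1, 0 and 1, against 13.5%, 17.5%, 19.5% and 10.7%. The median log2 fold change of the 7 was 0.46, 0.73, 1.01 and 0.52 in the same order, against medians of all genes between 0.01 and 0.02. Leaving out vehicle 1 or DEP 1 left 3 members called in DEP. The 4 comparisons share the vehicle libraries, so they do not repeat one another independently. The members were also chosen with earlier results of these data known, so their counts are not independent of the data. Against the mean of the 4 treatments 6 of 7 members were called (37% of all genes, 17% higher and 20.4% lower), all but FOSL2: FOSB at 1.53 ± 0.20, FOSL1 at 1.36 ± 0.16, JUNB at 1.17 ± 0.12, FOS at 0.68 ± 0.09, JUN at 0.27 ± 0.06 and JUND at -0.30 ± 0.07 (0.04 with the GC and length offset).

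The treatments carry the same labelled dose, which allows them to be set against one another in 6 pairs. The titles of the Mix samples do not say whether that dose is the total or that of each compound. These differences leave out the vehicle means, but the vehicle libraries still entered the filter, the scaling and the shared estimate of spread. DPP had the highest mean of the 5 groups for 6 of the 7 members, all but JUND. Mix had the lowest mean of the 4 treatments for FOSB, FOSL1, JUN and JUNB. How often DPP is highest or Mix lowest among all genes is not given here. Most neighbours in the order of a member did not differ past the threshold: for FOS the order was vehicle, DEP, Mix, DProP, DPP, and only the step from vehicle to DEP was called. For FOSB and JUNB the order was vehicle, Mix, DEP, DProP, DPP, with only the step from vehicle to Mix called. FOSL1 had that same order with only the last step called, and JUN (vehicle, Mix, DProP, DEP, DPP) likewise. No neighbouring step was called for FOSL2 (DEP, Mix, DProP, vehicle, DPP) or JUND (DProP, Mix, DPP, DEP, vehicle).

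DPP exceeded DEP in 4 members, where 2.93% of all genes were called, 1.36% higher in DPP and 1.58% lower. The log2 differences were 1.41 ± 0.18 for FOSL1 (adjusted p = 0.0016), 0.55 ± 0.10 for FOS (0.0163), 0.38 ± 0.07 for JUN (0.0138) and 0.48 ± 0.11 for FOSL2 (0.0357). Both DPP libraries lay above both DEP libraries in these 4 members, and also in FOSB and JUNB, which were not called. The share of all genes separated in this way is not given here. JUNB stood at 0.48 ± 0.13 (adjusted p = 0.0888), FOSB at 0.43 (95% interval -0.05 to 0.90) and JUND at -0.07 (-0.28 to 0.13). With 1 library fewer the count fell to 2 without DEP 1 or DPP 1, to 1 without DPP 2 and to 0 without DEP 2, where FOSL1 stood at 1.35 with an adjusted p of 0.05. JUNB was called in 5 of 21 alternatives (DESeq2, a fit of only DPP and DEP, the GC and length offset, without Mix 1 and without Mix 2), which made the count 5.

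DPP exceeded DProP in FOSL1 by 1.05 ± 0.17 and in JUN by 0.42 ± 0.07 on the log2 scale, both with an adjusted p of 0.0323, and in no other member past the threshold. These are 2 of 7 members against 0.262% of all genes (0.144% higher in DPP and 0.118% lower), or 51 genes. Both calls were lost in 6 of 21 alternatives, namely in a fit of only DPP and DProP and without DEP 1, DEP 2, DProP 1, DProP 2 or DPP 2, with adjusted p values up to 0.255. In these 6 the log2 difference was no lower than 0.85 for FOSL1 and 0.37 for JUN. The intervals of the other members ran from 0.06 to 0.51 for FOS, 0.08 to 0.67 for JUNB, 0.04 to 0.50 for FOSL2, 0.04 to 0.45 for JUND and -0.26 to 0.68 for FOSB.

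Between DProP and DEP edgeR called 0 of 7 members (0.524% of all genes, 0.39% higher in DProP and 0.134% lower), with 2 at an unadjusted p under 0.05, FOS at 0.27 (0.04 to 0.49) and JUND at -0.32 (-0.52 to -0.11). DESeq2 called 1 member, JUND, and limma-voom 0. A fit of only these groups called FOS and JUND. The other log2 differences of DProP from DEP were 0.22 for FOSB (-0.26 to 0.70), 0.36 for FOSL1 (-0.02 to 0.75), 0.21 for FOSL2 (-0.03 to 0.44), -0.04 for JUN (-0.19 to 0.11) and 0.11 for JUNB (-0.19 to 0.40). For FOSB and FOSL1 these intervals include differences of over 1.5-fold.

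Mix lay below DPP in 6 of 7 members, all but JUND, against 17.3% of all genes called, 10.4% higher in Mix and 6.82% lower. FOSL1 differed by -1.86 ± 0.18 (adjusted p = 6.68e-05), FOSB by -0.93 ± 0.22 (0.0141), JUNB by -0.66 ± 0.14 (0.00726), JUN by -0.58 ± 0.07 (0.000264), FOS by -0.49 ± 0.10 (0.00717) and FOSL2 by -0.42 ± 0.11 (0.0183). In each of the 6 both Mix libraries lay below both DPP libraries, though the share of all genes separated in this way is not given here. FOS, FOSL1 and JUN kept the call in all 21 alternatives. FOSB lost it without DPP 2 or Mix 1, FOSL2 without DPP 1 or Mix 1, and JUNB without DPP 2. Against DProP, Mix was lower in 1 of 7 members (6.89% of all genes, 4.36% higher in Mix and 2.53% lower), FOSL1 at -0.81 ± 0.18 (adjusted p = 0.0214), a call lost without DProP 1, DProP 2 or Mix 1. FOSB stood at -0.72 ± 0.22 there (adjusted p = 0.0766) and was called in 5 of 21 alternatives. Against DEP edgeR called 0 of 7 members (3.86% of all genes, 2.85% higher in Mix and 1.02% lower). At an unadjusted p under 0.05 there were 3, all lower in Mix: FOSB at -0.50 (-0.99 to -0.02), FOSL1 at -0.45 (-0.84 to -0.05) and JUN at -0.19 (-0.35 to -0.04). DESeq2 and limma-voom called 0 as well.

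**Figure D3:**
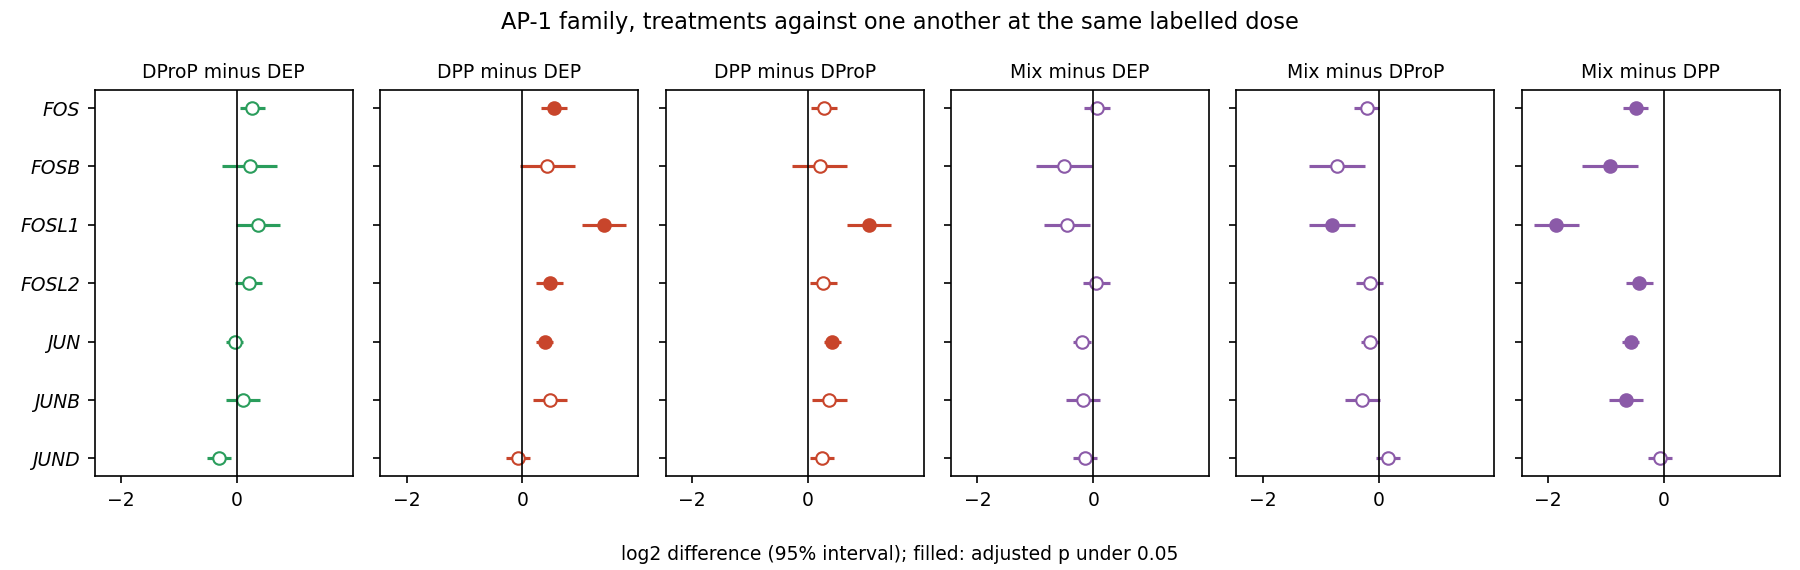
Log2 difference of each member between treatments of the same labelled dose (x axis, 1 panel per pair) with its 95% interval; filled points have an adjusted p under 0.05. FOSL1 departs farthest from 0 in the pairs with DPP, at 1.41 against DEP, 1.05 against DProP and -1.86 for Mix against DPP.

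The make-up of the family shifted with these changes. The sum of the 7 members, scaled to length, was 153 ± 7.10 CPM per kb in vehicle, 168 ± 7.18 in DEP, 162 ± 3.79 in DProP, 206 ± 5.56 in DPP and 154 ± 16.1 in Mix. JUND made up 46.8% ± 1.88 of that sum in vehicle and 38.0% ± 0.44 in DEP, 31.7% ± 1.18 in DProP, 29.5% ± 3.37 in DPP and 37.6% ± 1.01 in Mix. The 4 FOS genes together took 17% ± 0.50 in vehicle, 19.9% ± 0.31 in DEP, 24.9% ± 0.20 in DProP, 24.9% ± 0.12 in DPP and 21.9% ± 1.54 in Mix. JUNB moved from 4.15% ± 0.61 to between 7.60% and 9.0%. JUN held 32.1% in vehicle and 32.9% to 36.6% after treatment. The vehicle and treated libraries did not overlap in the share of JUND, of the FOS genes or of JUNB. The shares were not tested, and messages do not give the amounts of protein or of dimers. Those of JUND carry the GC trend given above. Because JUND is a large part of the sum, the sum and the shares of the other members carry it too.

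**Figure D4:**
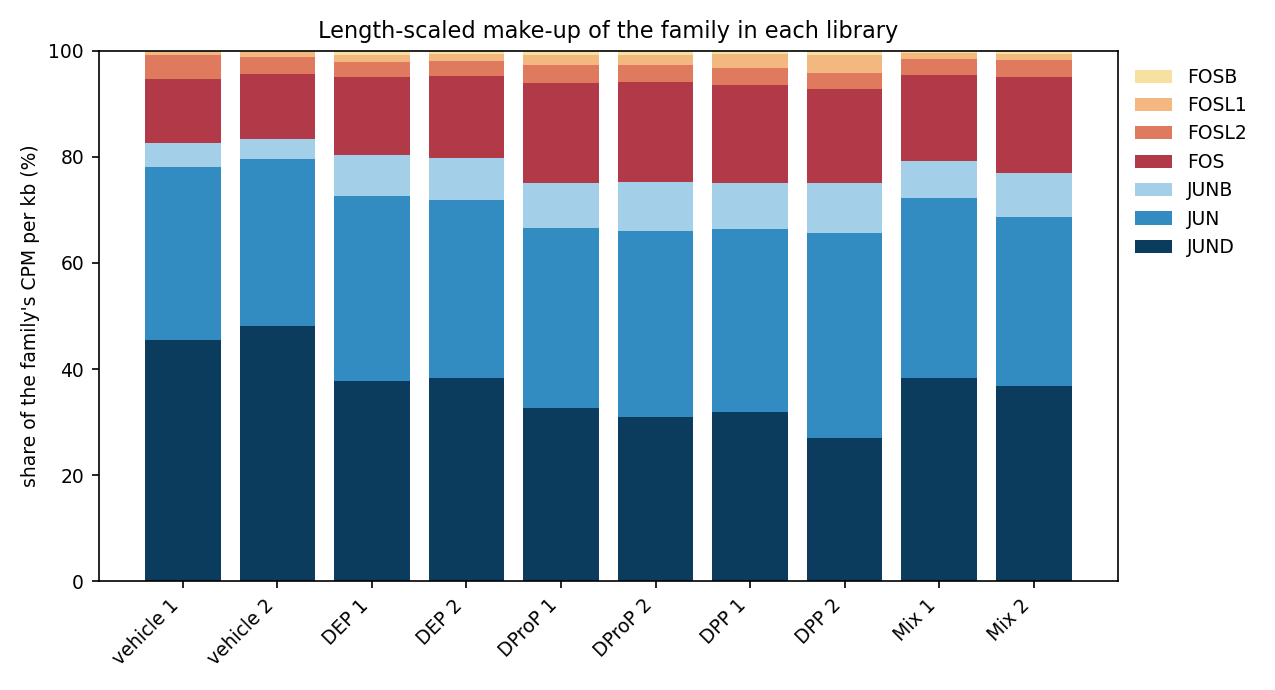
Share of each member in the summed CPM per kb of the 7 genes (y axis, percent), 1 bar per library; blue shades are JUN genes and warm shades FOS genes. JUND takes 45.5% and 48.2% of the 2 vehicle bars and 27.1% to 38.3% of the 8 treated bars.

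The pathway around the family was read from lists of its dimer partners, its upstream kinases and activators, its turnover and its targets. Counts below cover list genes with at least 0.144 CPM in every library, the level of the low-count filter, and the background is the 16106 genes tested at that level. Of those, 9.37% rose and 16.1% fell in DEP, 14.6% and 20.8% in DProP, 16.5% and 22.9% in DPP, and 9.48% and 12.7% in Mix. The smaller counts of the partner, SRF, turnover and immediate early lists also moved with the scaling and with single libraries. Genes beyond the 4 per list that the naming rule gave were chosen after their values were seen.

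Of 17 basic leucine zipper partners, 4 rose and 4 fell in DEP, 7 and 1 in DProP, 8 and 2 in DPP, and 3 and 3 in Mix. MAFA, a large MAF factor, rose from 0.282 and 0.288 CPM in vehicle to group means of 1.16 to 2.03, at log2 fold changes of 2.38 (DEP), 2.36 (DProP), 2.82 (DPP) and 2.02 (Mix). ATF3, a stress-induced repressor that pairs with JUN proteins, rose in DProP (1.16) and DPP (1.92). DDIT3, which encodes the stress factor CHOP, rose in the same groups (0.71 and 0.86). ATF4, the effector of the integrated stress response, fell in all 4 treatments, with log2 fold changes between -0.47 and -0.41. CREB5 rose in all 4, by 0.28 to 0.60 on the log2 scale, and so did ATF7, by 0.20 to 0.42.

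The kinases and activators upstream of AP-1 showed no common direction. Of 30 genes of the MAPK cascade, 5 rose and 4 fell in DEP, 3 and 6 in DProP, 6 and 4 in DPP, and 5 and 4 in Mix. Scaled by library size alone, the counts that rose were 12, 13, 16 and 14, while 4794, 5850, 5820 and 4605 of all 19465 genes rose (1964, 2864, 3256 and 1891 with TMM). Without vehicle 2 they were 1, 0, 2 and 1, beside 1377, 1900, 2438 and 1194 of all genes. The p38 genes MAPK11 and MAPK12 fell in every treatment, by 0.67 and 0.75 in DPP for MAPK12 and MAPK11 on the log2 scale. MAP2K2, which encodes a kinase that activates ERK, fell in DProP, DPP and Mix, and MAP3K11 fell in DEP, DProP and Mix. With the GC and length offset the calls of MAP2K2 and MAP3K11 against the mean of the treatments were lost (adjusted p = 0.478 and 0.786). MAP3K11 in DPP stood at -0.11, and at 0.24 with that offset. Of 22 genes for SRF, its ternary complex factors, CREB and their cofactors, 1 rose and 4 fell in DEP, 3 and 2 in DProP, 1 and 4 in DPP, and 1 and 3 in Mix. SRF, which drives FOS through the serum response element, fell by 0.43 in DPP on the log2 scale and in the other treatments too, while MRTFB, an SRF cofactor, rose in DProP (0.28) and Mix (0.25). CRTC1, a CREB cofactor, fell in DPP (-0.42), a call lost with the GC and length offset (adjusted p = 0.0703).

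Of 14 genes for the turnover and restraint of AP-1, 4 rose and 3 fell in DEP, 4 and 5 in DProP, 6 and 3 in DPP, and 2 and 1 in Mix. FBXW7, a ubiquitin ligase subunit that marks JUN for destruction, rose in all 4 treatments, with group means of 61.6 to 70.1 CPM against 50.3 ± 2.17 in vehicle. COP1, a ligase for JUN, rose in DEP, DProP and DPP (0.40, 0.30 and 0.34). ZFP36, which encodes a protein that binds AU-rich elements and destroys such messages, rose in DPP (0.54) and was lower in Mix than in DPP by 0.52 on the log2 scale.

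Genes described as AP-1 targets in other cells rose mainly in DPP. Their list was chosen with earlier results of these data known, so its counts are not independent of the data. Of 24 such genes measured in every library, 19 rose and 1 fell in DPP, with a median log2 fold change of 0.65 against -0.02 for the background. The count that rose was 16 to 19 over the 20 alternatives. It was 9 up and 2 down in DProP, 5 and 1 in DEP, and 2 and 1 in Mix, and these smaller counts moved with the scaling, to 15 up in DProP and 14 in DEP with library size alone, where 5850 and 4794 of all 19465 genes rose (2864 and 1964 with TMM). Leaving out either DEP library left 1 in DEP. The 2 in Mix were SPP1 and GRIA2, and library size alone gave 5. The full list has 39 genes, of which 30 were tested. In DPP 23 of those 30 rose and 1 fell, but MMP1, MMP10, TGFA, ITGA2 and PTGS2 reach the filter in at most 1 group, so that count leans upward by the filter.

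SPP1, which encodes the secreted matrix protein osteopontin, stood at 17.7 ± 2.44 CPM in vehicle, 40.3 ± 1.06 in DEP, 63.5 ± 11.2 in DProP, 116 ± 5.40 in DPP and 36.6 ± 7.43 in Mix, and rose in all 4 (log2 fold change 2.71 ± 0.17 in DPP, adjusted p = 7.22e-06). CCND1, the cell cycle gene of cyclin D1, stood at 37.5 ± 2.59 CPM in vehicle and 82.0 ± 2.22 in DPP (1.13 ± 0.11, adjusted p = 2.29e-05), and at 37.3 ± 4.45 in Mix (-0.01, 0.958). CD44, a hyaluronan receptor, rose from 173 ± 14.6 to 279 ± 13.5 CPM in DPP (0.68 ± 0.07, 1.91e-05), and VEGFA, the vascular growth factor, from 68.4 ± 5.05 to 118 ± 17.7 (0.79 ± 0.09, 8.43e-05). HBEGF, an EGF receptor ligand, rose by 1.76 in DPP, and the ERK phosphatases DUSP4 and DUSP6 by 1.90 and 1.33 on the log2 scale. MMP14, a membrane-bound matrix metalloproteinase, was the gene that fell in DPP (-0.50).

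Between treatments 14 of the 24 targets were higher in DPP than in DEP and none lower, where 1.61% of the background was higher. The count was 6 without either DEP library, and 4 alternatives, DESeq2 among them, found 1 lower. Against DProP 3 were higher in DPP, HMOX1 (0.70) and HBEGF (1.55) among them, with none lower, where 0.168% of the background was higher. That count was 1 without DEP 1, without DEP 2 or in a fit of only DPP and DProP, and 12 with DESeq2. All genes higher in DPP numbered 28 in edgeR's fit of all libraries, 12 without DEP 1, 12 without DEP 2, 13 in the fit of only DPP and DProP, and 184 with DESeq2. Mix was lower than DPP in 17 of 24 and higher in MMP14 and GRIA2, against 7.97% and 12.3% of the background, and the lower count ran from 15 to 18 over 21 alternatives.

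Other immediate early genes did not move as a block. Of 22 measured in every library, 5 rose and 3 fell in DEP, 7 and 5 in DProP, 11 and 4 in DPP, and 4 and 4 in Mix. EGR2, a zinc finger factor, rose in all 4 treatments, from 3.35 ± 0.71 CPM in vehicle to 6.58 ± 0.60 in DEP, 7.75 ± 0.53 in DProP, 17.9 ± 2.18 in DPP and 6.38 ± 0.19 in Mix. ARC, which encodes a synaptic protein induced by neuronal activity, rose in all 4 as well (log2 fold changes 1.41, 1.49, 2.12 and 0.99), and GADD45B, a stress gene, likewise (1.35, 1.48, 1.85 and 1.03). EGR1 followed with 0.59, 0.72, 1.12 and 0.79. NR4A1, an orphan nuclear receptor that usually rises with FOS, fell in all 4, from 14.1 ± 1.81 CPM to 7.70 ± 0.59, 7.86 ± 0.67, 6.40 ± 0.39 and 9.23 ± 1.19, and its relative NR4A3 fell in all 4 too, by 0.40 to 0.54 on the log2 scale. KLF2 fell in DEP (-0.86) and Mix (-0.95).

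**Figure D5:**
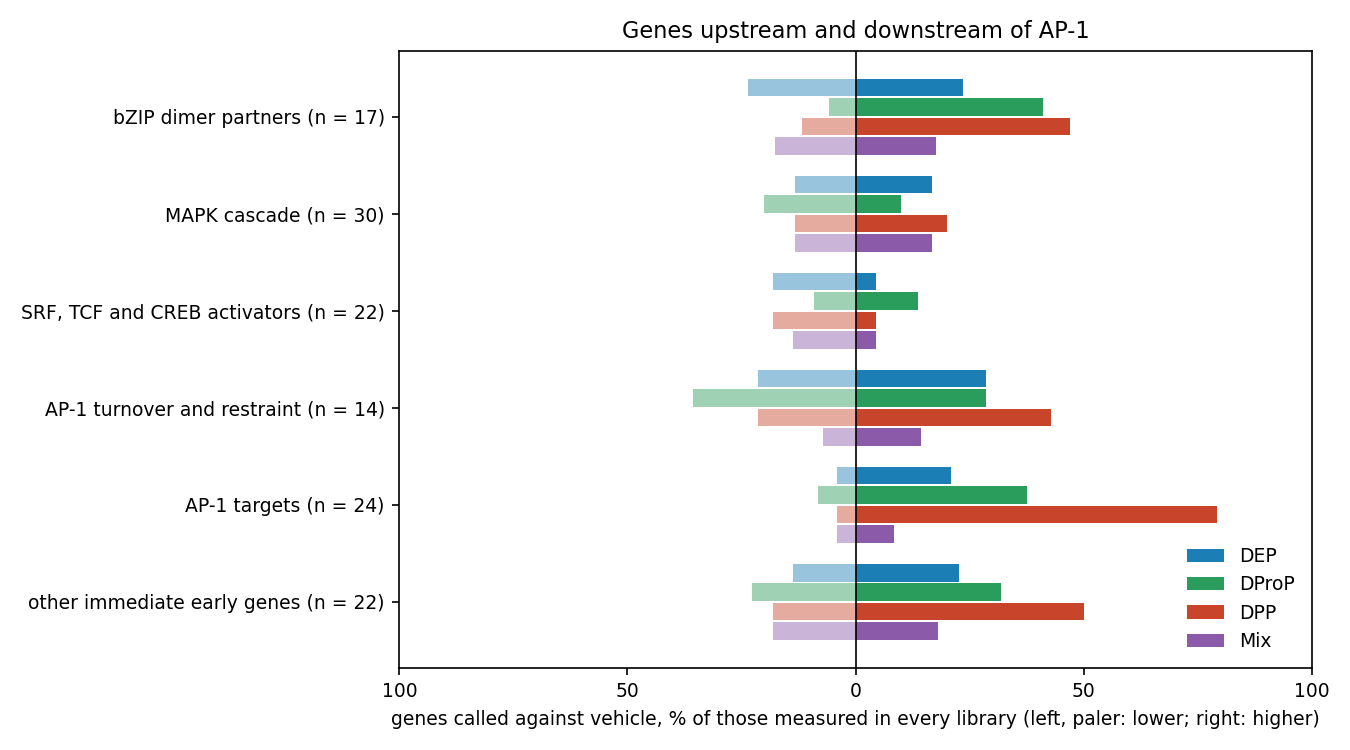
Share of list genes measured in every library that were called against vehicle (x axis, percent; right and darker: higher, left and paler: lower), by list and treatment on the TMM scale. The AP-1 targets in DPP stand out with 19 of 24 genes higher and 1 lower, while the MAPK and SRF lists divide between both sides, with more genes on the right under library size scaling. All lists were chosen with earlier results of these data known.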

How the data were processed

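RNA from 10 libraries of pooled neurospheres was purified with a Maxwell kit and enriched by exome capture (SureSelect RNA Direct), per the labels' protocols. The authors deposited raw read counts per gene, neither normalised nor filtered. The submitters' processing notes list the build GRCh38 and, with no order or role, the read trimmer Trimmomatic 0.38, the quality tool FastQC, the aligner HISAT2 2.1.0, the assembler StringTie 2.1.3b, R 4.3.2 and the package edgeR 4.0.9. The counting tool, gene annotation and strand setting were not given in the sources used.

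From the counts, edgeR 4.0.16 (R 4.3.3) kept 19465 genes (filterByExpr), scaled by TMM and fitted 1 mean per group over all 10 libraries by robust quasi-likelihood, with 5 residual degrees of freedom. The 11 comparisons were each treatment and the mean of the 4 against vehicle, and the 6 pairs of treatments. P values were adjusted by Benjamini and Hochberg over all genes tested, with a threshold of 0.05. An exact permutation test of 2 libraries against 2 cannot go below 0.333. The alternatives were other scalings and filters, DESeq2 1.42.0, limma-voom (limma 3.58.1), fits of only the groups compared, a replicate block, an offset for GC content and length, and each library left out. A fit of the 8 treated libraries was added after the data were seen.

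The members and gene lists were chosen with earlier results of these data known. The naming rule took all 7 members and 4 genes per list. Values of 2 list genes are not reported here, though the list counts include them. On data simulated as DEP against vehicle, the test called 32.1%, 67.1% and 81.7% of genes shifted by 0.5, 1 and 2 (56, 73 and 71 genes, log2) and 0.0311% of 19265 unshifted genes. Far fewer genes were shifted there than the 23.6% called in DEP, and no GC trend was simulated. These rates therefore need not hold for the data. The libraries of a group differed beyond sampling noise.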

Additional observations from a re-analysis of the deposited data

How the results depend on the processing

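Against vehicle the calls of JUNB in all 4 treatments, of FOS in DProP, DPP and Mix, and of FOSB and FOSL1 in DEP, DProP and DPP held in all 20 alternatives run for each. Over all member results against vehicle and their alternatives, 636 values kept side and direction, 25 lost the call, 22 gained it and 10 changed sign; between treatments these were 828, 31, 15 and 8. FOSB and FOSL1 rest on the fewest reads of the family, with 77 to 423 and 104 to 751 counts per library.

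The number of genes called between treatments moved with the tool. DProP against DEP had 102 genes, and 279 with a stricter filter, 612 with DESeq2 (with 1 member), 489 in a fit of only those groups (with 2 members) and 173 with the GC and length offset. DPP against DProP had 51, and 146, 400, 17 (with 0 members) and 119 under the same settings. DPP against DEP had 571, and 1132 with DESeq2, 979 in a fit of only those groups and 905 with the offset. Mix against DEP had 752, and 1368 with DESeq2 and 1602 in a fit of only those groups. Mix against DProP had 2 members with the stricter filter, DESeq2, limma-voom, the offset or the 8 treated libraries only, a fit added after the data were seen. The cause was not tested, except that fits of fewer groups use fewer libraries.

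Leaving out 1 library at a time gave 2075 to 4615 genes and 3 to 6 members in DEP against vehicle, 3976 to 6244 and 5 to 6 in DProP, 4343 to 6828 and 5 to 6 in DPP, 1569 to 4014 and 3 to 5 in Mix, and 4703 to 7314 and 6 to 6 for the mean of the 4. Between treatments it gave 9 to 267 genes and 0 to 0 members for DProP against DEP, 80 to 747 and 0 to 5 for DPP against DEP, 33 to 784 and 0 to 0 for Mix against DEP, 5 to 132 and 0 to 2 for DPP against DProP, 382 to 1446 and 0 to 3 for Mix against DProP, and 1498 to 3448 and 4 to 6 for Mix against DPP. The lowest gene counts came without DEP 1 (DEP, and Mix against DEP), DProP 2, DPP 2, Mix 1, vehicle 2 (the mean) and DEP 2 (DProP and DPP against DEP).

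Scaling by library size alone moved the median of all genes by 0.16, 0.18, 0.16 and 0.14 on the log2 scale in DEP, DProP, DPP and Mix. The split of higher against lower calls then went from 1964 and 2637 to 4794 and 1259 in DEP, from 2864 and 3402 to 5850 and 1699 in DProP, from 3256 and 3793 to 5820 and 2200 in DPP, from 1891 and 2079 to 4605 and 1020 in Mix, from 3305 and 3966 to 6515 and 1991 for the mean, from 28 and 23 to 29 and 36 for DPP against DProP, and from 849 and 493 to 667 and 601 for Mix against DProP. TMM from protein-coding genes gave 2603 and 2106 in DEP and 3540 and 2768 in DProP. The offset gave 589 and 469 for Mix against DEP (554 and 198 without it) and 961 and 850 for Mix against DProP.

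Some signs turned, and the cause was not tested. With the GC and length offset JUND stood at 0.145 in DEP, 0.092 in DPP, 0.0339 in Mix and 0.043 for the mean, MAP3K11 at 0.236 and RPS6KA4 at 0.0216 in DPP. With library size alone FOSL2 stood at 0.0477 in DProP and 0.00817 for the mean, and MAP3K11 at 0.053 in DPP. With 1 library left out, FOSL2 ran from -0.272 to 0.0305 in DProP, from -0.00113 to 0.301 in DPP and from -0.294 to 0.00852 for the mean, at its ends without vehicle 2 or vehicle 1, and JUN in Mix from -0.0200 to 0.0974. Between treatments JUN ran from -0.109 to 0.0331 for DProP against DEP, and JUND from -0.225 to 0.0628 for DPP against DEP and from -0.216 to 0.077 for Mix against DPP. For Mix against DEP, FOS ran from -0.139 to 0.236, FOSL2 from -0.0758 to 0.174 and JUNB from -0.43 to 0.0493.

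The replicate numbers pair nothing that the labels name, and deviations of same-numbered libraries correlated at -0.0465 to 0.0471 over 10 pairs of groups. With the replicate block 5 members were called in DEP (FOSL2 at an adjusted p of 0.0517), 5 in DProP, 5 in DPP and 5 in Mix, where FOSL1 was gained. The block gave 4301 genes in DEP, 5977 in DProP, 6780 in DPP, 3699 in Mix and 7011 for the mean, and 92, 529, 651, 36, 1234 and 3147 for DProP against DEP, DPP against DEP, Mix against DEP, DPP against DProP, Mix against DProP and Mix against DPP.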

Other observations

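Among the 11261 or 11262 other genes with a mean of at least 5 CPM, the genes whose log2 CPM followed each member most closely over the 10 libraries are given as a description; the libraries share their groups, so the values of r are high for many genes. For FOS they were PTPN1 (Pearson's r 0.978), SPP1 and SRD5A1, and for FOSB CNOT1 (0.978), ARC and MARF1. FOSL1 was followed by SRXN1 (0.992), SPRED2 and TNFRSF10B, and JUN by DUSP5 (0.974), TGFB1 and MIDEAS. For JUNB they were GADD45B (0.983), CAPRIN2 and AKAP10. For FOSL2 they were IGFBP3 (0.925), STK10 and SHISA9, and for JUND HS6ST1 (0.983), RNPS1 and HSPBP1.

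Between members, r was 0.948 for FOSL1 with JUN over 10 libraries and 0.958 over the 8 treated ones. FOS with FOSL2 gave 0.303 over 10 and 0.993 over the 8 treated libraries.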
